A study of Drosophila melanogaster with 5 samples.

Results

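Embryos at S10-12, which spans the extended germ band and the onset of its retraction, were compared with embryos at S5, the cellular blastoderm, over the 259 genes printed on the membranes of the series, which are all the genes it measured. Both groups were hand-selected wild-type embryos of the Canton-S strain. S5 corresponds to stage 5 and S10-12 to stages 10 to 12, and 1 deposited sample stands for each interval. Radiolabeled SMART-cDNA of each sample was hybridized to 4 nylon membranes, named A to D, so that the comparison rests on 8 of the 20 membranes of the series. On A to C, 295 clones of the library were spotted in duplicate in 1 layout, while D held 579 clones in a layout of its own. No source says whether the 4 membranes of a group saw RNA of different embryos, and p-values and standard errors (SE) therefore measure only the spread between membranes, which may be technical. The clones came from a library of gastrula cDNA made by subtractive hybridization, so the genes are a selection and not a sample of the genome.

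At the cellular blastoderm, membranes grow inward between the nuclei of the syncytium and enclose each in a cell of its own, a process carried by a small set of zygotic genes. Gastrulation then folds the mesoderm inward and the germ band extends. By S10-12 the embryo has segments, a delaminating nervous system, tracheal placodes and an amnioserosa. Many blastoderm transcripts are known to be short-lived, whereas genes of adhesion, signaling and neural differentiation are used for longer.

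The unit used throughout is the spot intensity after subtraction of the local background, divided by the median of the RP49 spots (a ribosomal protein transcript) of that membrane, and called here the ratio to RP49. Differences are log2 of S10-12 over S5 taken within a letter (A with A, and so on) and then averaged, with an adjusted p from limma over all genes, introns and intergenic regions tested. Whole embryos were measured, so fewer cells of a type and less RNA per cell cannot be told apart.

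Control spots of Sry-alpha, a gene of cellularization that serves as the check of stage, stood clear of background on 16 of 30 spots at S5 and on 0 of 30 at S10-12. Their median net intensity on membranes A, B and C was 0.214, 0.0681 and 0.152 at S5, against 0.00564, 0.00230 and 0.000850 at S10-12. The spots were thus brighter at S5 on each of the 3 membranes that carry them, before any scaling. Control spots of tin (tinman), the heart and visceral muscle regulator, stood clear of background on 9 of 34 spots at S5 and 17 of 34 at S10-12. Their median net intensity was 0.0134, 0.00741, 0.00226 and 0.00096 on A to D at S5 and 0.0130, 0.00334, 0.0123 and 0.0201 at S10-12. It was thus higher at S10-12 on C and D only, and the count of tin is not read as a rise. For fog, which acts in the shape change of invaginating cells, 3 and 0 of 34 passed, and for the mesoderm regulators sna and twi 13 and 16 at S5 against 7 and 8 at S10-12. Blank solvent spots passed on 82 of 560 at S5 and on 45 of 560 at S10-12. On D more spots passed at S10-12, with 2 and 3 of 4 for sna and 1 and 4 of 4 for twi. The counts of sna and twi are therefore not read as a fall. RP49 itself did not move alike on all membranes. Its median was 0.219, 0.0473, 0.162 and 0.0357 on membranes A to D at S5, over the spots that passed, and 0.0495, 0.0128, 0.0870 and 0.0414 at S10-12, so it was lower at S10-12 on A to C and slightly higher on D. Other controls moved against RP49 in a direction that depended on the membrane. On the log2 scale the dap spike (dilution 0.5) over RP49 differed by 1.91, 1.44 and -2.20 on A to C. Tubulin differed by 1.50, -1.34, 0.73 and -1.34 on A to D, and actin by 0.17, -0.52 and -1.90 on A, C and D. Many differences of single genes below are no larger than these shifts, whose part in them was not tested. Among the other defining markers, clones of 0 of 5 pole cell genes were printed, and 1 of 6 mesoderm, 1 of 5 hemocyte, 3 of 5 amnioserosa, 1 of 5 nervous system and 1 of 3 tracheal genes. Between 61.2 and 89.7% of gene spots per membrane passed at S5 and between 43.8 and 95.3% at S10-12, against 0.781 to 29.9% and 0.781 to 17.4% of blank solvent spots.

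Of the 172 genes that at least 2 letters measured in both intervals, 1 rose at an adjusted p under 0.05, the non-coding RNA gene Hsromega, which is 0.581% of those tested. Likewise 1 gene fell, CG6479, again 0.581%. Under an unadjusted p of 0.05 the numbers were 14 and 13, or 8.14 and 7.56%. Scaling by the 75th percentile gave 1 higher (0.581%) and 2 lower (1.16%), Sry-alpha being added. A fit over all 20 membranes with the letter as a block, called the block fit below, gave 4 higher (2.33%) and 11 lower (6.4%), and the main test with 3 letters required gave 3 of 105 higher (2.86%) and 5 lower (4.76%). The median gene differed by 0.09 on the log2 scale, with quartiles of -0.40 and 0.63, and 97 genes had positive and 75 negative differences. This split followed the scaling, with 118 and 54 under the mean of RP49 (median 0.47) and 72 and 100 under quantile normalization (median -0.07), and small differences are therefore not read by their sign. Differences of at least 1 in size were found for 23 genes upward and 16 downward. Of the 19 introns and intergenic regions tested, 0 were called. The remaining 87 genes were measured in both intervals on fewer than 2 letters.

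The membranes fell into 2 sets. Across the genes of a pair of letters, which are not independent replicates and share the scaling of each membrane, Pearson's r of the differences was 0.88 between letters A and C (92 genes), 0.57 between A and B (57) and 0.43 between B and C (46). With letter D it was 0.04 for A (132 genes), 0.16 for B (69) and 0.19 for C (100). Set against the mean of A to C, the difference on D had the same sign for 81 of 162 genes. The levels themselves showed the same division, with an r of 0.97 between membranes A and C and 0.33 between A and D at S5, and of 0.94 and 0.21 at S10-12. Membranes A and C also resembled each other spot by spot. The same printed spot on both had an r of 0.96 at S5 and 0.93 at S10-12, whereas duplicate spots of a clone within membrane A had 0.85 and 0.87 and within C 0.91 and 0.83. A and C are thus less than independent. With these averaged as 1 replicate, an alternative chosen after the data were seen, neither Hsromega nor CG6479 passed (adjusted p = 0.080 for each), and Sry-alpha passed as the only gene (-3.53, adjusted p = 0.046). With membranes A to C alone, 21 of 111 genes passed as higher (18.9%) and 9 as lower (8.11%). In that fit limma gave every feature 1 shared spread, so its small p-values come from the spread over all genes and not from that of the gene. Genes without both intervals on B rest there on A and C, among them CG6479, Nrt, Sxl, CG11077, CG34335 and Egfr. Their adjusted p thus counts 2 membranes that are less than independent. Of the 21 higher genes 18 were measured on D, 11 with the same sign there and 7 with the opposite one, and of the 9 lower genes 6 had the same sign and 3 the opposite one. The part of the layout and of the clones on membrane D in this was not tested.

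**Figure D1:**
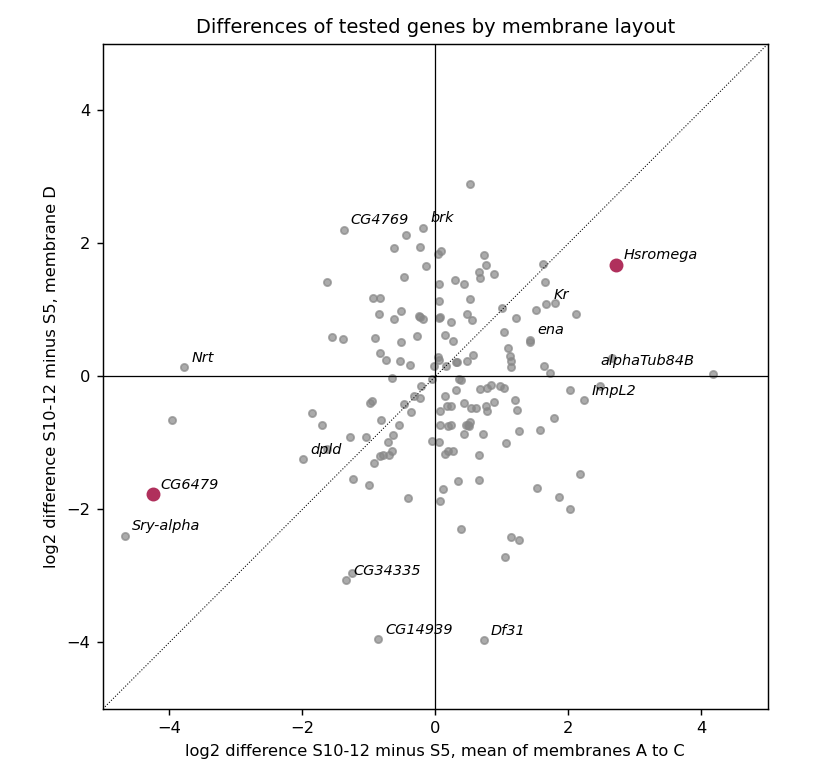
Log2 difference S10-12 minus S5 of 162 tested genes, with the mean of membranes A to C on the x axis and membrane D on the y axis. The dotted line marks equal values and the large points are the 2 genes that passed, Hsromega and CG6479. Both lie on the same side of 0 on both axes, which is no independent evidence, since the test that picked them used D too. In all, 81 of the 162 genes do so.

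Sry-alpha, CG6479, Nrt and CG12730 had the largest negative differences, in this order. All but Nrt belong to a list of 11 genes drawn up for cellularization, of which 6 were printed and 3 tested, with a median of -3.42 against 0.09 over all 172 genes, and 1 of the 3 passed. Because CG6479 and CG12730 have no role given here and the list was made with earlier results of these data known, its direction supports nothing about cellularization genes as a group. The sign of the 3 was the same under 7 other scalings, 2 of which left 1 gene to test. On membrane D alone, 1 of the 6 printed genes had a positive difference. CG6479, for which no role is given here, had ratios to RP49 of 2.99, 3.14 and 1.99 on membranes A, C and D at S5 and of 0.227, 0.436, 0.116 and 0.584 on A to D at S10-12. Every S5 membrane thus lay above every S10-12 membrane. It fell by 3.42 on the log2 scale (SE 0.61, 3 letters, adjusted p = 0.030), or 10.7-fold (-3.01 and adjusted p = 0.080 with A and C averaged as 1), with differences of -3.72, -4.76 and -1.77 on A, C and D, and with A to C alone the difference was -4.24. Without membrane C it did not pass (-2.75, adjusted p = 0.072), and over 20 alternatives it passed in 11, with limma adjusted p from 9.05e-16 to 0.966.

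Sry-alpha, whose protein shapes the actin network of the growing furrows, had ratios to RP49 of 4.90, 10.8, 5.39 and 3.13 on membranes A to D at S5. At S10-12 it was measured on C and D only, at 0.212 and 0.593. On A the duplicates disagreed, and on B it was under the signal rule, where it was at least 42.0-fold lower than at S5, taking the lowest signal that passed on that membrane as the limit. The membranes of both intervals did not overlap, and the difference of -3.53 (SE 0.71, 2 letters) just missed the threshold (adjusted p = 0.050). On D its 2 clones had differences of -3.77 and 0.66. In the block fit the difference was -3.68 and passed (adjusted p = 7.12e-04), and over 14 alternatives that could test it, it passed in 7, with limma adjusted p from 2.13e-04 to 0.579.

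CG12730, of no role given here, had ratios of 3.20, 3.48 and 0.329 on A, C and D at S5 and of 0.205, 0.637 and 0.209 on A, B and D at S10-12. Membranes overlapped because of D, and the difference of -2.31 (SE 0.83, adjusted p = 0.24) passed in the block fit (-2.61, adjusted p = 0.011) but not in the main one. On membrane C it was under the signal rule at S10-12, at least 60.2-fold lower than at S5. SNCF had ratios of 4.81, 15.2, 6.01 and 3.45 at S5, whereas at S10-12 all 12 of its spots passed but its duplicates disagreed on A to C and only D gave a ratio, 2.04. For lva, which acts in Golgi-based membrane supply to the furrows, S5 ratios of 0.103, 0.259 and 0.0795 on A to C stood against signals under the rule on the same membranes at S10-12, but these ratios were so near the lowest signal that could pass that no fold is given. Its level on D was 1.58 at S5 and 0.666 at S10-12. For the septin Sep5 only D had both intervals, with 0.966 and 0.971. These 3 genes were not tested. No gene that at least 2 membranes measured in 1 interval failed the rule on every membrane of the other. Without that minimum, 2 genes failed it on every membrane at S5 and 1 gene at S10-12.

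A second list holds genes that earlier work by others had classed as specific to cellularization, taken from among those the study called on these samples, so that its direction is no independent evidence. Of 10 genes 5 were tested, 3 with positive and 2 with negative differences (median 0.38), and 0 passed (0 also under an unadjusted p of 0.05). The ratios of CG4440 were 3.90, 3.83 and 4.56 on A, C and D at S5 and 2.81, 3.50, 1.36 and 3.44 at S10-12, which did not overlap, with a difference of -0.79 (SE 0.48, adjusted p = 0.44). CG13427 had differences of 1.13 on A and -2.41 on D, and the innexin gene inx3, of gap junctions, 0.02, 0.93 and 0.23 on B to D.

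**Figure D2:**
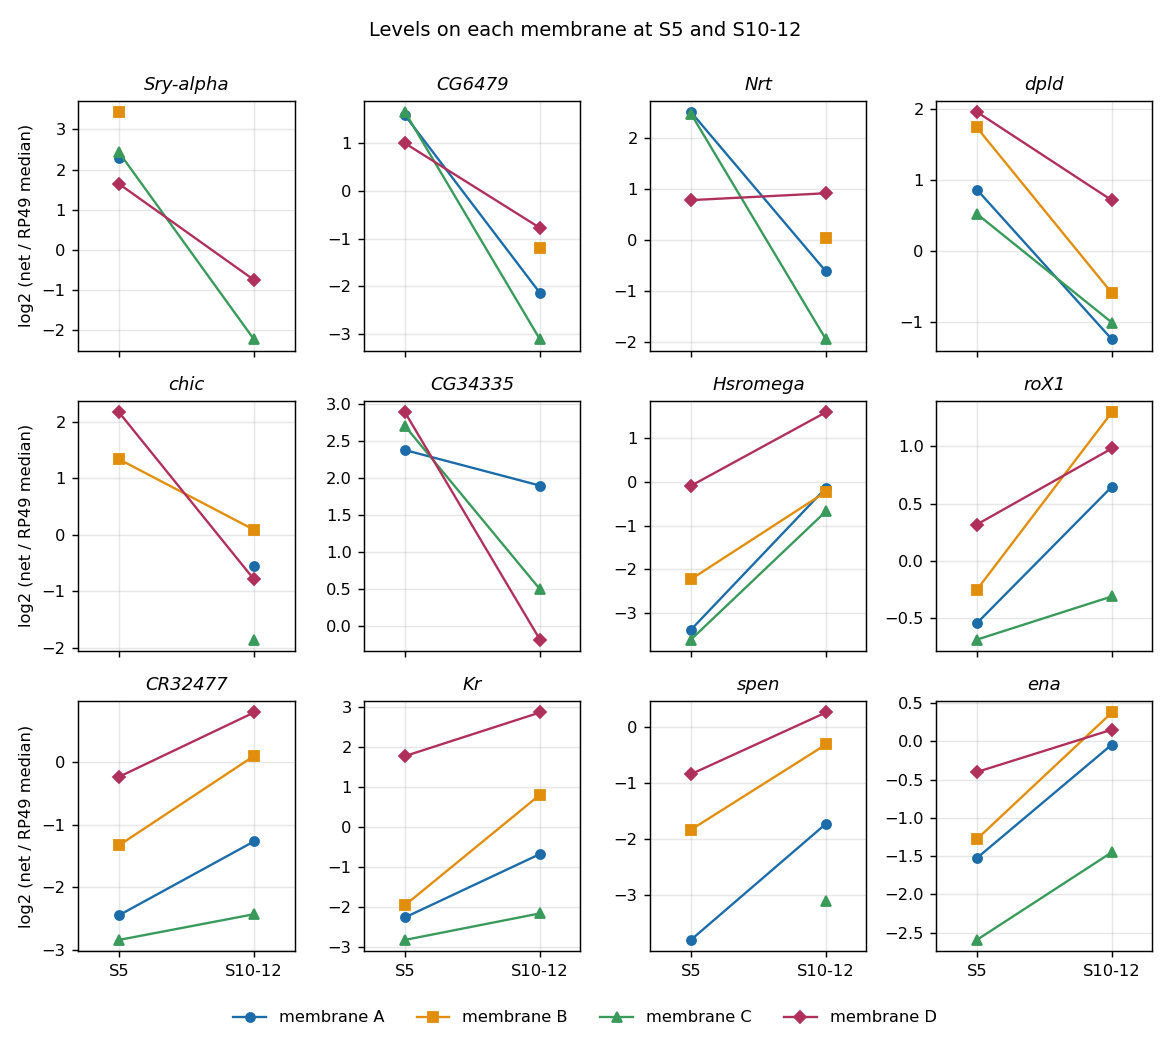
Log2 of the ratio to RP49 of 12 genes on each membrane at S5 and S10-12, with a line joining membranes of the same letter and y axes that differ between panels. Sry-alpha, CG6479, chic and CG34335 have every S5 membrane above every S10-12 membrane, Hsromega is higher at S10-12 in all 4 letters, and Nrt differs on A and C but not on D.

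Further genes with large negative differences did not pass the main test. Neurotactin (Nrt), the transmembrane adhesion molecule that binds Amalgam, had ratios to RP49 of 5.71, 5.59 and 1.72 on A, C and D at S5 and of 0.654, 1.02, 0.260 and 1.89 on A to D at S10-12. The differences were -3.13 and -4.43 on A and C but 0.13 on D, and their mean of -2.47 (SE 0.78, adjusted p = 0.18) did not pass. With A to C alone, where only A and C measured both intervals, Nrt had -3.78 (adjusted p = 3.19e-13). In the block fit it had -2.41 (adjusted p = 0.011). It passed in 6 of 20 alternatives, with limma adjusted p of up to 0.998. On D it was spotted as 5 clones, of which 4 gave a difference, 3 negative and 1 positive, from -3.01 to 2.10. Amalgam (Ama) itself was measured in both intervals on D only, at 2.11 and 7.30. Profilin, encoded by chic, had 2.53 and 4.5 on B and D at S5 and 0.684, 1.06, 0.276 and 0.579 at S10-12. Its membranes did not overlap, and the difference of -2.10 (SE 0.66, adjusted p = 0.18) passed in the block fit (-2.25, adjusted p = 0.00905) and without the filter on duplicates (-1.98, adjusted p = 0.023).

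The gene dpld, now named wech, encodes a protein that links integrins to the cytoskeleton at muscle attachment sites. Its ratios were 1.82, 3.34, 1.44 and 3.88 on membranes A to D at S5 and 0.424, 0.665, 0.499 and 1.64 at S10-12. The intervals overlapped, since D at S10-12 lay above C at S5, but within each letter S10-12 was lower, with differences of -2.11, -2.33, -1.53 and -1.24, and the mean of -1.80 (SE 0.40) missed the threshold narrowly (adjusted p = 0.050). It passed in 5 of 20 alternatives, among them A to C alone (-1.99, adjusted p = 3.53e-06) and the block fit (-1.80, adjusted p = 0.019), with limma adjusted p of up to 0.998.

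Further genes were lower at S10-12 in every letter that measured them without passing the main test. Of 105 genes with at least 3 letters, 16 were lower in every letter (15.2%) and 19 higher in every letter (18.1%), and of 38 with 4 letters 4 were lower (10.5%) and 9 higher (23.7%). CG34335, annotated today as a long non-coding RNA, had ratios of 5.20, 6.52 and 7.41 on A, C and D at S5 and of 3.73, 1.41 and 0.882 at S10-12, with no overlap and a difference of -1.92 (SE 0.58, adjusted p = 0.18, or 0.011 in the block fit). With A to C alone, here only A and C, it had -1.34 (adjusted p = 0.012). CG14939, which encodes cyclin Y, stood at 2.16, 1.17 and 16.5 on A, C and D at S5 and at 1.35, 3.99, 0.571 and 1.07 on A to D at S10-12. Most of its difference of -1.89 came from D, with -3.95 there against -0.68 and -1.03 on A and C. CG32043 was lower in 4 of 4 letters, between -0.59 and -2.09, with a mean of -1.32 (adjusted p = 0.18, and -1.24 with 0.0039 for A to C alone) and membranes that did not overlap. It passed in 1 of 20 alternatives. Sxl, the RNA-binding regulator of sex determination, had differences of -1.11, -2.31 and -0.74 on A, C and D, CG11077 had -1.57, -2.12 and -0.55 on the same membranes, and scyl, an inhibitor of TOR signaling, -0.39, -1.60 and -1.64 on A, C and D. In the block fit these 3 genes passed, Sxl with -1.23 (adjusted p = 0.043), CG11077 with -1.70 (adjusted p = 0.042) and scyl with -1.44 (adjusted p = 0.043). With A to C alone, here only A and C, Sxl had -1.71 (adjusted p = 0.0014), CG11077 -1.85 (adjusted p = 5.17e-04) and scyl -0.99 (adjusted p = 0.082). Over 20 alternatives Sxl and CG11077 passed in 2 each and scyl in 1, with limma adjusted p of up to 0.998. CG15628 was lower by 0.68 to 1.19 in 4 of 4 letters (mean -0.93, SE 0.38, adjusted p = 0.30).

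Hsromega, a long non-coding RNA that organizes nuclear speckles with RNA-binding proteins and is strongly induced by heat shock, was the gene that rose. Its ratios to RP49 were 0.0961, 0.214, 0.0822 and 0.937 on membranes A to D at S5 and 0.907, 0.854, 0.627 and 3.01 at S10-12. Blank spots that passed had medians of 0.0460, 0.166 and 0.0604 on A to C at S5 and of 0.132, 0.362 and 0.0975 at S10-12. Because D read higher than the other membranes at both intervals the groups overlapped, yet each letter was higher at S10-12. The rise was 2.46 (SE 0.42, 4 letters, adjusted p = 0.030), or 5.51-fold (2.25 and adjusted p = 0.080 with A and C averaged as 1), from differences of 3.24, 2.00, 2.93 and 1.68. A to C carried 1 clone of the gene and D 6, and of those 6 clones 3 were higher and 3 lower, from -0.92 to 2.85 with a median of 0.28. With the median of clones in place of the mean it did not pass (2.05, adjusted p = 0.14), nor without membrane C (2.31, adjusted p = 0.072), while with A to C alone the difference was 2.72. Over 20 alternatives it passed in 10, with limma adjusted p from 8.23e-11 to 0.998.

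The 4 genes that the files list as non-coding by a CR number had positive differences (median 1.07, against 0.09 over all genes), and 1 of the 4 passed. CG34335, described above with -1.92, is a long non-coding RNA in the current annotation too and went the other way. With A to C alone all 4 CR genes passed, in a fit that called 18.9% of all genes higher. Scaled to the dap spike, 3 of the 4 were positive, and under the other scalings all were. The dosage compensation RNA roX1 had ratios of 0.687, 0.841, 0.622 and 1.25 at S5 and 1.57, 2.46, 0.808 and 1.97 at S10-12 on A to D. It was higher in 4 of 4 letters (mean 0.94, SE 0.40, adjusted p = 0.30), but of 8 clones measured on D only 2 were higher. CR32477 was spotted as 15 clones on A to C and 27 on D, and of 23 clones measured on D 18 were higher. Its ratios were 0.183, 0.397, 0.139 and 0.848 at S5 and 0.415, 1.07, 0.185 and 1.73 at S10-12 (mean difference 1.01, SE 0.39, adjusted p = 0.27). For CR40712 the ratios were 0.0705 and 0.224 on A and B but 3.89 on D at S5, and 0.175, 0.643 and 5.58 at S10-12. The level on D thus differed more from that on A and B than the intervals did from each other. Blank spots that passed had medians of 0.0460 and 0.166 on A and B at S5 and of 0.132 and 0.362 at S10-12.

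Kruppel (Kr), the gap gene of the blastoderm that is used again in the nervous system and in Malpighian tubules, was the 1 tested gene among 4 gap and pair-rule genes printed. Its ratios were 0.209, 0.258, 0.142 and 3.41 at S5 and 0.626, 1.75, 0.224 and 7.25 at S10-12 on A to D. It was higher in 4 of 4 letters, by 1.58, 2.76, 0.66 and 1.09, and the mean of 1.52 (SE 0.45, adjusted p = 0.18) did not pass, although it did with A to C alone (1.67, adjusted p = 9.76e-05), in the block fit (1.52, adjusted p = 0.00915) and in 1 more of 20 alternatives, where limma adjusted p reached 0.998. The pair-rule genes h, slp1 and odd were measured in both intervals on D alone. Among segment polarity, Hedgehog and Wnt genes, 4 of 7 printed were tested and 0 passed, with a median of -0.20 that changed sign under mean RP49 scaling. Under an unadjusted p of 0.05, 1 was higher, where 8.14% of all genes were. The Hedgehog receptor ptc (-1.10) and the Pax gene gsb (-0.92) had negative differences, whereas drl, a receptor for Wnt5 in axon guidance (1.11), and the kinase nmo (0.51) had positive ones.

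Of 5 tested dorsal-ventral genes 4 had positive differences (median 0.83), against 97 of 172 over all genes, and 0 passed. With A to C alone 3 of 4 passed as higher, where 18.9% of all genes did. Egfr, the epidermal growth factor receptor, was measured in both intervals on A and C only, at 0.0695 and 0.0530 at S5 and at 0.225 and 0.138 at S10-12 (difference 1.54, SE 0.59, adjusted p = 0.29, or 0.0038 with A to C alone). These ratios were near those of blank spots that passed, with medians of 0.0460 and 0.0604 on A and C at S5 and of 0.132 and 0.0975 at S10-12. The difference of Egfr is therefore not read as a rise. The LIM-homeodomain gene tup, expressed in the amnioserosa and dorsal ectoderm, was higher in 4 of 4 letters, by 0.14 to 1.75, and the TNF ligand egr in 3 of 3 (0.83, SE 0.48). The repressor brk showed the opposite pattern between layouts, with -0.11 and -0.26 on A and C and 2.24 on D. In the homeodomain list, Antp had ratios of 4.33, 6.03, 3.76 and 0.687 at S5 and of 2.00, 3.48 and 0.534 on A, B and D at S10-12 (-0.76), and hth was higher in 3 of 3 letters (0.75, adjusted p = 0.44).

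Axon guidance, adhesion and immunoglobulin genes had positive differences for 8 of 9 tested members, Nrt being the exception, with a median of 0.73 (6 of 9 under quantile normalization and 6 of 8 under dap). None passed. Under an unadjusted p of 0.05, 3 were higher and 1 lower, where 8.14 and 7.56% of all genes were, and with A to C alone 4 of 8 passed as higher and 1 as lower, against 18.9 and 8.11% of all genes. The 4 were trn, ImpL2, ena and Gp150. On D ena was higher, but ImpL2 (-0.36) and Gp150 (-0.83) were lower, as were all 3 clones of trn. On D, 8 of 12 had positive differences. The actin regulator ena had ratios of 0.347, 0.412, 0.166 and 0.757 at S5 and 0.971, 1.3, 0.367 and 1.11 at S10-12, higher in 4 of 4 letters (1.21, SE 0.40, adjusted p = 0.18), and passed with A to C alone (1.43, adjusted p = 0.00105). This was the 1 alternative of 20 in which ena passed. The secreted immunoglobulin protein ImpL2, which binds insulin-like peptides, had 0.423, 0.564, 0.245 and 1.49 at S5 and 2.05, 2.60 and 1.16 on A, B and D at S10-12. Its differences of 2.27 and 2.20 on A and B stood against -0.36 on D, where 1 of 6 clones was higher. The Slit receptor gene lea, now robo2, had differences of 2.12 on A and 0.93 on D.

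Bearded family and Notch genes gave 3 of 3 positive differences (median 0.39) and 0 passed (0 under an unadjusted p of 0.05). On D alone 1 of 3 was positive, and scaled to dap, or to RP49 and dap, 2 of 3. Tom had 1.12 and 0.42 on A and C and -0.44 on D, and Gp150, a leucine-rich-repeat protein, 1.32, 1.37 and 1.07 on A to C and -0.83 on D. BobA varied in sign among A to C too, with 0.71, -0.31 and -0.22, and 1.40 on D, where 5 of its 10 measured clones were higher and 5 lower.

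Among genes of the cytoskeleton, the alpha-tubulin gene alphaTub84B differed between letters. Its ratios were 0.695 and 9.94 on B and D at S5 and 12.5 and 10.2 at S10-12, so that its mean of 2.10 came from 1 letter, with 4.17 on B and 0.03 on D. Clones of near-identical paralogs, among which are the alpha-tubulin genes, may share label on these membranes.

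Among chromatin genes 5 of 6 were positive (median 0.49), against 97 of 172 over all genes, with 4 of 6 under quantile normalization and 4 of 5 under dap. None passed, and 2 were higher under an unadjusted p of 0.05, where 8.14% of all genes were. The RNA-binding transcriptional regulator spen had ratios of 0.0720, 0.281 and 0.558 on A, B and D at S5 and 0.302, 0.805, 0.117 and 1.20 on A to D at S10-12. It was higher in 3 of 3 letters (1.56, SE 0.47, adjusted p = 0.18) and passed in the block fit (1.40, adjusted p = 0.042) and with A to C alone (1.80, adjusted p = 7.58e-04). Over 20 alternatives it passed in 3, with differences from 0.07 to 1.85 and limma adjusted p of up to 0.998. On A, where spen had 0.0720 at S5, blank spots that passed had a median of 0.0460 at S5 and of 0.132 at S10-12. The chromatin decondensation factor Df31 went from 7.94 to 13.2 on A and from 14.2 to 0.911 on D, opposite directions that gave a mean of -1.62 with an SE of 1.01. HmgZ (0.56) had positive differences on A to C and -0.39 on D. In the RNA processing list 4 of 6 were positive (3 of 6 under quantile normalization or the median of all RP49 spots) and 1 passed, Hsromega, which is also in the non-coding list. The splicing factor B52 had 1.78, 1.10 and 0.83 on A to C and -0.51 on D, the exosome nuclease Rrp6 -0.12, 1.63 and 1.68 on A, B and D, and Ip259 a mean of -0.42.

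Genes of general cell function were spread around the median gene. Translation, energy and folding genes had 3 positive and 4 negative differences (median -0.13, which was positive under 3 of the 7 other scalings), and 0 passed (0 under an unadjusted p of 0.05). Protein disulfide isomerase Pdi had -0.92 and -1.30 on C and D, and OstStt3, a subunit of oligosaccharyltransferase, was higher in 4 of 4 letters (0.68, SE 0.40). Calmodulin (Cam) differed by 1.05 on B and -2.72 on D, and CG4769 by -1.16 and -1.60 on A and C and 2.21 on D. Cell cycle and ubiquitin genes had 3 positive and 3 negative differences (median -0.03, positive under 2 of the 7 other scalings). Of these, 0 passed and 1 was lower under an unadjusted p of 0.05, where 7.56% of all genes were. CycB3 had 0.33 on B and -1.57 on D, Ubp64E a mean of 0.11 and DDB1 of 0.17.

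Secreted and membrane proteins with a restricted in situ pattern, again a selection made by the study from these embryos, had 4 positive and 4 negative differences among 8 tested (median -0.17, or 0.28 under the mean of RP49), and 0 passed (0 under an unadjusted p of 0.05). CG31607 had 0.39 on C and -2.30 on D, CG6234 2.03 on A and -0.21 on D, and CG8654 1.65, -0.24 and 1.39 on A to C. The scavenger receptor Sr-CII, a hemocyte gene, had differences of 1.74, 0.74 and 1.29 on A to C and of -2.46 on D. The clusters the study formed on these samples had 14 positive and 12 negative differences (cluster 1, median 0.02), 20 and 12 (cluster 2, median 0.16) and 19 and 12 (cluster 3, median 0.26), and all 3 medians were under 0 with dap and with quantile normalization. CG34404 of cluster 1 had 0.74 and 1.83 on A and D, and CG32801 of cluster 2 had 1.65 and 1.41. Of their tested genes 1, 0 and 0 passed as higher and 0, 0 and 1 as lower.

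**Figure D3:**
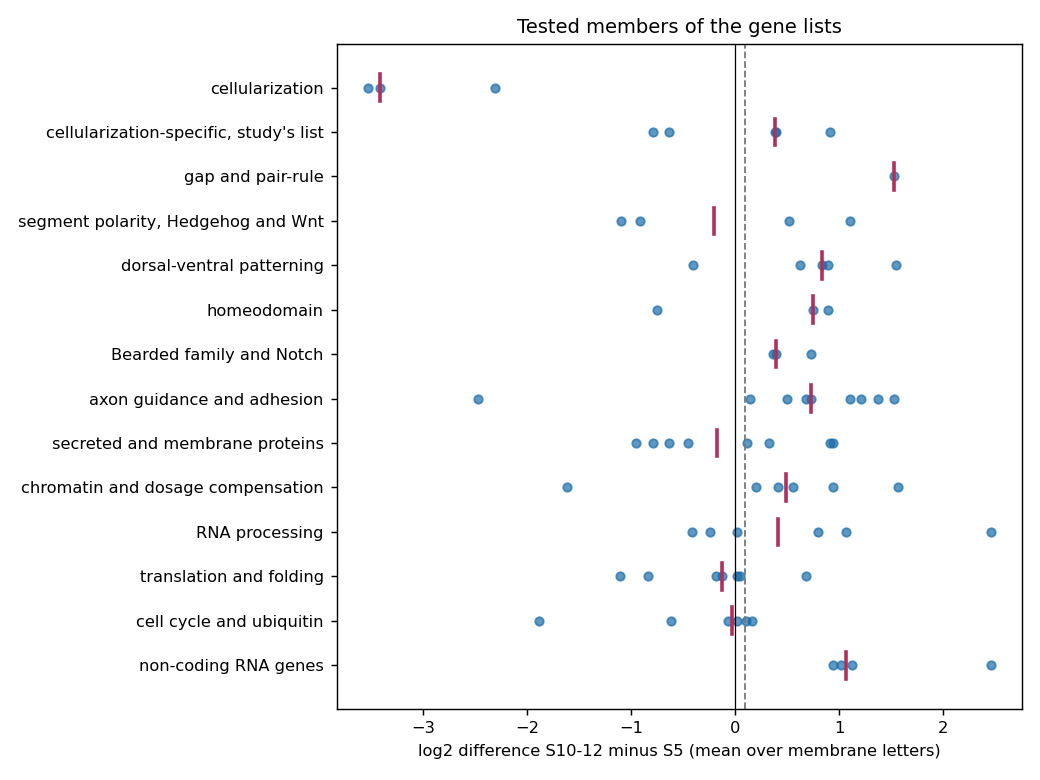
Log2 difference S10-12 minus S5 of the tested members of the gene lists shown, with 1 point per gene, a bar at the median of the list and a dashed line at 0.09, the median of all 172 tested genes. The 3 tested members of the cellularization list, among them CG6479 and CG12730 with no role given here, lie between -3.53 and -2.31. The 4 genes with a CR number, shown as non-coding RNA genes, lie between 0.94 and 2.46, without CG34335 at -1.92.

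Measured without the requirement of a common letter, 15 of 188 genes with at least 2 membranes in each interval had membranes that did not overlap, 6 higher (3.19%) and 9 lower (4.79%) at S10-12. The higher ones were 14-3-3zeta, an adaptor of phosphorylated proteins, alph, alphaTub84B, CG33096, the Bearded family gene Ocho and Mipp1, an inositol polyphosphate phosphatase. Ocho had ratios of 0.243, 0.528 and 0.162 on A to C at S5 and of 1.41 and 1.76 on B and D at S10-12. Mipp1 had 0.129 and 0.251 on A and B at S5 and 0.525 and 1.04 at S10-12 (difference 2.04, SE 0.59, adjusted p = 0.18), and passed in the block fit (1.89, adjusted p = 0.015). For 14-3-3zeta the S5 ratios were 0.511, 0.893, 0.463 and 1.05 on A to D and those at S10-12 1.57 and 3.38 on A and D (1.65, adjusted p = 0.24). The lower ones were Aos1, a subunit of the SUMO-activating enzyme, with CG3402, CG8092 and 6 genes given above.

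The 5 intervals place these differences in time, as a description. CG6479 had mean log2 ratios of -3.0 before the blastoderm (S2-3), 1.41 at S5, and then -1.66 (S6-7), -1.77 (S8-9) and -1.81 (S10-12), and Sry-alpha of 2.45 at S5 and of -1.25, -2.12 and -1.50 at the 3 later intervals. The level of both at S10-12 was thus within 1 log2 unit of that at S6-7, directly after the blastoderm. For Sry-alpha the S10-12 mean is over C and D alone and leaves out B, where it was under the signal rule. Whether Sry-alpha fell further after S6-7 is therefore not shown. Nrt stood at 1.93 at S5 and at -0.21, -0.50 and -0.40 later, and dpld at 1.27 and then at -0.16, -0.07 and -0.53. Hsromega was at -2.33 at S5 and at -1.50, 0.13 and 0.14 in the same later intervals. For Kr the means were -1.32, -1.42, -0.63 and 0.21 from S5 on, for spen -2.16, -1.92, -1.46 and -1.22, and for roX1 -0.29, -0.66, 0.18 and 0.65. The ranges over membranes of these last 3 genes overlapped between every pair of neighboring intervals from S5 on.

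**Figure D4:**
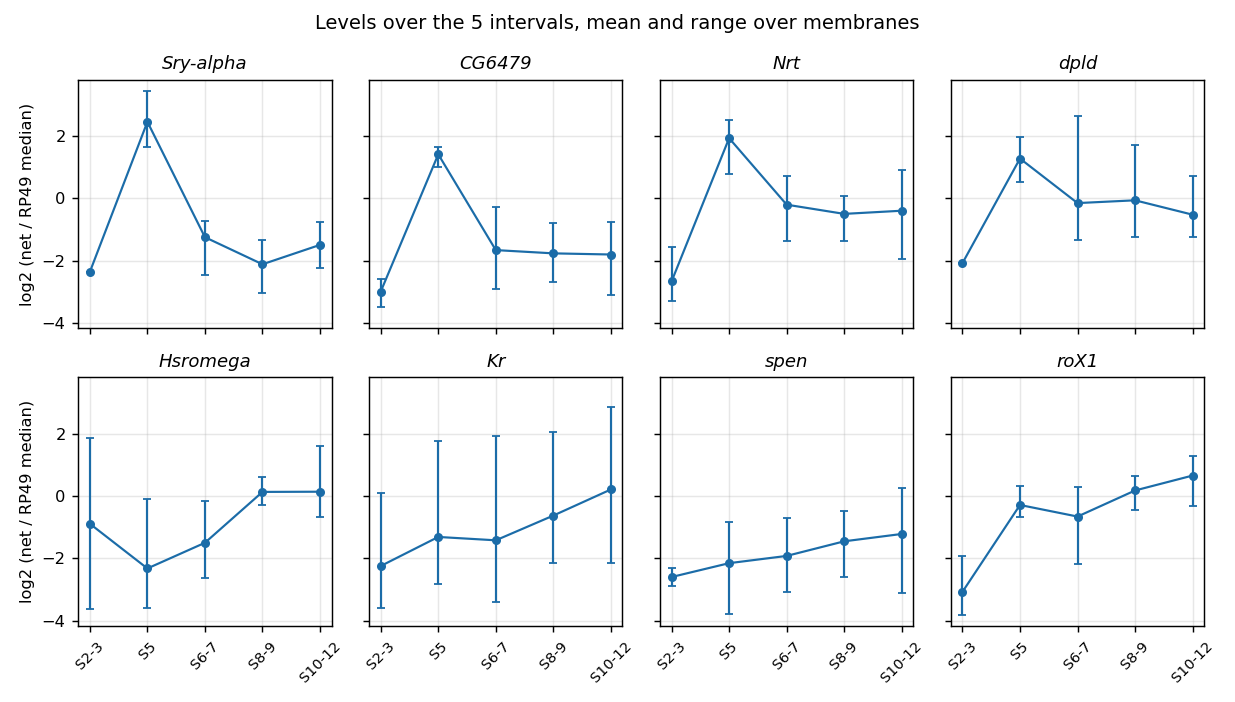
Mean log2 ratio to RP49 of 8 genes over the 5 intervals, with error bars from the lowest to the highest membrane (no bar where 1 membrane measured the gene). Sry-alpha and CG6479 peak at S5 with means of 2.45 and 1.41, and Hsromega has its lowest mean, -2.33, at S5.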

How the data were processed

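Embryo RNA with a dap spike was amplified as SMART-cDNA, labeled in 2 rounds and hybridized to nylon membranes, whose images were quantified with VersArray Analyzer. The sources do not tie membranes to labeling rounds. The intensity values were deposited by the authors as signal, local background with its SD and net signal per spot, on an arbitrary scale and without normalization. A net signal not above background is set to 0. A further table deposited by the authors holds 1 normalized signal per interval for features without names. It was used for a tally only.

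Spots entered where the net was above 0 and the signal was at least 1 SD over the mean of the local background, and a clone was left out where the coefficient of variation of its duplicates was over 0.5. The qcom filter of the study was not applied. Clones were averaged, divided by the median RP49 of the membrane and taken to log2. The dap spots, absent from membrane D, were used only in alternatives. Within-letter differences were tested in limma 3.58.1 (R 4.3.3; lmFit, eBayes) where at least 2 letters had both intervals, with Benjamini-Hochberg adjustment over 191 features. The methods of the study state a SAM test against S2-3, which was not run. Tables were made with SciPy 1.17.1, NumPy 2.4.6 and pandas 2.3.3 under Python 3.11.15. The fits were tested on simulated data. The number of membranes limits the precision.

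Membrane letters were taken as a technical batch. Deviations of S5 and S10-12 from the mean of their interval correlated within a letter with an r of 0.37, 0.06, 0.30 and 0.42 for A to D.

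Genes were named by a rule: those past the test, the largest differences of 1 sign on at least 3 letters, up to 4 members per list with the largest differences, printed controls and genes whose membranes did not overlap. Further genes that were singled out (SNCF, lva, Sep5, Ama, h, slp1, odd, Sr-CII, trn) were chosen after their values were seen. Members and lists were chosen with earlier results of these data known. Symbols are those of the files, and 253 of 259 matched a current RefSeq symbol. The result of 1 gene list is not reported here.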

Additional observations from a re-analysis of the deposited data

Results flagged for a closer look

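Of 74 sets of 4 membrane values of named genes, 1 had a membrane far from the others: the S10-12 minus S5 difference of Gp150 was -0.83 on membrane D, against 1.07, 1.32 and 1.37 on C, A and B. Chance alone marks about 1 such set in 20.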

How the results depend on the processing

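The counts of 1 higher and 1 lower gene moved with most settings. Both were 0 under mean RP49 scaling, the median of all RP49 spots, dap scaling, no signal rule, 2 background SDs, the median of clones and the 8 membranes without the letter as a replicate block. They were 1 and 3 with RP49 and dap, 1 and 2 with the 75th percentile, 2 and 6 without the filter on duplicates, 3 and 5 with 3 letters required (fewer genes tested), 4 and 11 with the replicate block over 20 membranes, 0 and 2 without that replicate block, and 0 and 1 with A and C averaged as 1, where the 1 was Sry-alpha and CG6479 was lost. Leaving out 1 membrane letter gave 0 to 21 higher and 0 to 9 lower genes, with 0 and 0 without C and 21 and 9 without D. The median difference was 0.47 under mean RP49 scaling, and 0.08 to 0.21 with 1 letter left out. Under 2 background SDs 1 gene was seen at S5 only. Among the authors' own normalized values, 28.5% of 123 features were higher at S10-12 (median log2 ratio -0.69), but these carry no names, were scaled otherwise and are not the tested genes, so the share is not comparable with the 56.4% of tested genes. The averaging of A and C and the median of all RP49 spots were chosen after seeing the data. The difference of Hsromega ranged from 2.05 to 2.84 and that of CG6479 from -4.24 to -2.64. Neither turned in sign, and the causes were not tested. Normexp was not run, since its planned offset has no meaning on a scale that ends at 2.41. Dim spots limit the comparison, with 87 genes not tested.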
